A study of Mus musculus with 9 samples.

Results

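The genes described here are 44 that act in mitosis, the part of the cell cycle in which replicated chromosomes are condensed, attached to the spindle, separated and shared between daughter cells. They were chosen by symbol: a row of the expression table was taken if the array's platform annotation gave it exactly 1 symbol and that symbol was a listed gene, and a gene with several such rows is represented by the one of highest average level. Of the 44 genes, 43 were measured in this way, among 19938 genes tested in all. Ccnb1, which encodes cyclin B1, had no row with exactly 1 symbol and is not analysed here. None of the 43 lay among the dimmest 30% of the genes tested.

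Total RNA from whole ear skin was hybridised to Affymetrix Mouse Gene 1.0 ST arrays, with 3 arrays for each of 3 groups. All animals were female C57BL/6 mice aged 7 to 9 weeks, with no transgene or deletion named in the labels. The anisomycin group received 10 µl per ear side, once a day, of a solution holding 2 mg/ml anisomycin in 99.5% ethanol. Anisomycin is an inhibitor of protein synthesis that also activates stress-activated protein kinases. The imiquimod group received 10 mg of a cream with 5% imiquimod, an agonist of the RNA-sensing receptor TLR7 that is widely used to produce psoriasis-like skin inflammation in mice, on both ear sides once a day. Both treatments ran over 5 days. The third group is labelled as vehicle, and the labels give neither the nature of its vehicle nor its duration, so that ethanol and cream base each lack a group known to be matched to them. The labels do not say that the 3 samples of a group were separate animals, and if they were not, p-values reflect only the variation among the samples taken. Whole ear skin is a mixture of epidermis, dermis, muscle, fat and immune cells. In such bulk tissue a change in the number of dividing cells and a change in RNA per cell cannot be told apart.

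Values are log2 expression as the authors deposited them, and differences are differences of log2 expression, or log2 fold changes. A gene was called when its Benjamini-Hochberg adjusted p over all 19938 genes, from a moderated fit over the 9 arrays (limma), was under 0.05. A gene is said to have risen or fallen only where it was called. Array medians ran from 6.01 to 6.10, and across all genes the median difference was -0.01 for anisomycin against vehicle, -0.03 for imiquimod against vehicle and 0.01 for anisomycin against imiquimod.

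Entry into mitosis is driven by the kinase Cdk1 with its cyclin partners, and is followed by the action of Polo-like and Aurora kinases, the building of kinetochores on centromeres, a checkpoint that holds the anaphase-promoting complex until every chromosome is attached, and the central spindle that guides division of the cell body. Most of these genes are transcribed late in the cell cycle, and their transcripts are scarce in tissue where few cells divide. In skin, division is mainly found in basal keratinocytes and in growing hair follicles. Their promoters are known for CCAAT boxes, which the factor NF-Y binds, and for the cell cycle genes homology region (CHR), which is bound by the MuvB core of the DREAM and B-MYB complexes that repress or activate them.

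To show the sequences that members of different roles share, promoter windows were taken from RefSeq (build GRCm38.p6), from 250 bases before to 50 bases after each annotated transcript start. Of the 44 genes, 38 had a window in the table, Ccnb1 among them. The genes not matched were Ccna2, Cdc25c, Foxm1, Aurkb, Kif20a and Tpx2. The 5 stretches printed here are those of the member with the largest rise that holds both motifs in each of 5 roles, and they end at the last base before the start. Capitals mark the letters searched, CCAAT for the CCAAT box and TTTGAA or TTCGAA for the CHR, on either strand, so that ATTGG and TTCAAA are matches on the opposite strand. TTCGAA is its own reverse complement, and the motifs were searched independently, so that matches may overlap. The first is Plk1 at chr7:122159315-122159434 on the plus strand, the second Bub1 at chr2:127831860-127831979 on the minus strand, then Kif11 at chr19:37376262-37376381 on the plus strand, Top2a at chr11:99024190-99024436 on the minus strand and Ccnb2 at chr9:70421555-70421741 on the minus strand.
Plk1: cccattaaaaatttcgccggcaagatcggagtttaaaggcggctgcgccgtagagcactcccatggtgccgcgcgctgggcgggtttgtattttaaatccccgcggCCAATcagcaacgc
Bub1: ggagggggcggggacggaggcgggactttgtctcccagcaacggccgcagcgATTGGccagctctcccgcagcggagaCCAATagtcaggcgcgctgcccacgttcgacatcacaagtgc
Kif11: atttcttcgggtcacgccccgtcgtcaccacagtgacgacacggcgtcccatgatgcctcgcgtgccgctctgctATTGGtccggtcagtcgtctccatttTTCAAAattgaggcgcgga
Top2a: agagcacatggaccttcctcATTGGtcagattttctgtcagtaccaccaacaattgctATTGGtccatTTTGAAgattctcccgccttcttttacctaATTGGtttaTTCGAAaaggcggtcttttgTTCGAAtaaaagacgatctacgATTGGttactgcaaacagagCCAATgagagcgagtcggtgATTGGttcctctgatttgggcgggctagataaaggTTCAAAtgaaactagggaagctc
Ccnb2: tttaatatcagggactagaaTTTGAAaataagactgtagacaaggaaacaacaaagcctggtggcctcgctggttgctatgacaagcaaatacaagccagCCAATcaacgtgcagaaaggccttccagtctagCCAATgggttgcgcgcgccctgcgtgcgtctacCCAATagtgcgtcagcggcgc

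Counting the start as 0, the CCAAT match of Plk1 begins at -14, those of Bub1 at -68 and -42, and that of Kif11 at -45, with a CHR match of Kif11 at -19. The Top2a window holds 4 CHR and 6 CCAAT matches, all before the start. Ccnb2 holds CCAAT matches at -87, -54 and -21 and a CHR match at -167. Past the start, and so beyond the printed stretches, the windows of Plk1, Bub1 and Ccnb2 each hold a CHR match, at 30, 14 and 4.

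Over all windows of the members, a CHR match was found in 29 of 38 genes, or 76.3%, against 21.7% of all 27025 genes of the promoter table. A CCAAT match was found in 28, or 73.7%, against 41.1%. Both were found in 25 of the 38 genes, or 65.8%, against 9.65% of all genes of the table and 8.78% of the 15614 tested here that have a window. Ect2 and Prc1 have 2 overlapping windows each, and for positions the window of lower coordinates was used, so that each match is counted once. The CCAAT matches, 67 in all, had a median position of -71, and 65 of them began before the start. The 39 CHR matches had a median position of 2, and 20 of them began at or past the start. Birc5, Mad2l1, Melk, Ncaph, Nuf2 and Nusap1 held neither motif in this window. A match is a description of the letters and not a binding site, and the absence of these letters from a window says nothing of the factors.

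**Figure D1:**
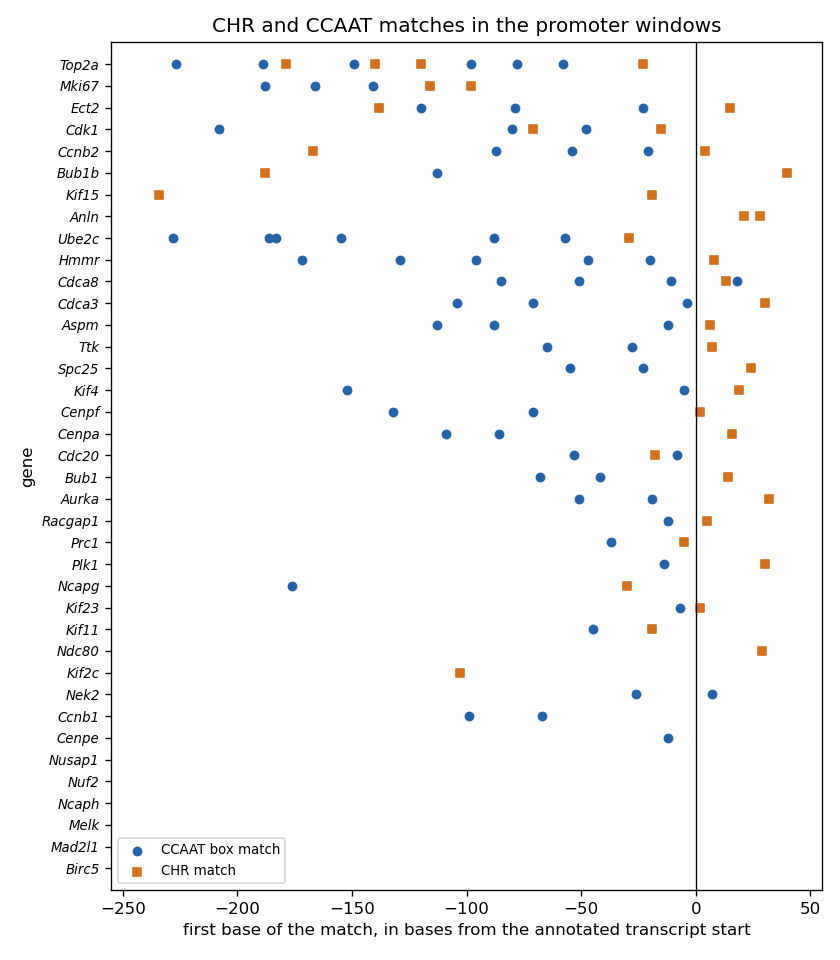
Position of each CHR match (squares) and CCAAT match (circles) in the promoter window of 38 mitosis and spindle genes, with the x axis in bases from the annotated transcript start and 1 gene per row and 1 window per gene. The CCAAT matches lie mostly left of the start (65 of 67), while 20 of 39 CHR matches lie at it or to its right.

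Both treatments were accompanied by higher levels of the mitosis genes, and the rise was larger with imiquimod. With imiquimod all 43 measured genes rose against vehicle, by a median of 1.57 on the log2 scale, or 2.98-fold. The share of all genes that rose in that comparison was 20.4%, and the share called in either direction was 42.7%. With anisomycin 38 of the 43 rose, 0 fell and 5 were not called, with a median difference of 0.91 over the 43, or 1.87-fold. Over all genes, 22.3% rose in that comparison and 45.6% were called in either direction. Compared directly, 35 of 43 were lower with anisomycin than with imiquimod and 0 were higher, with a median difference of -0.68, where 9.59% of all genes were lower and 20.4% were called. Of the genes called, 49.0% were higher with anisomycin and 47.7% with imiquimod, or 37.1% and 36.4% when arrays were centred on the 1000 genes of most stable rank, where the medians of the 43 genes were 0.82 and 1.50. Ratios of linear signal ran from 1.52 for Ndc80 to 6.90 for Plk1 with imiquimod.

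The arrays of the groups mostly did not overlap. All 3 imiquimod arrays lay above all 3 vehicle arrays in 43 of 43 genes, where 51.8% of all genes had groups that did not overlap in one direction or the other. For anisomycin against vehicle this held for 34 of 43 (all genes, 51.3%), and for anisomycin against imiquimod for 40 of 43 (all genes, 39.3%). The 2 comparisons with vehicle share the same 3 vehicle arrays, so that an error in those arrays moves both in the same way. Standard errors of a difference ran from 0.11 to 0.22.

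**Figure D2:**
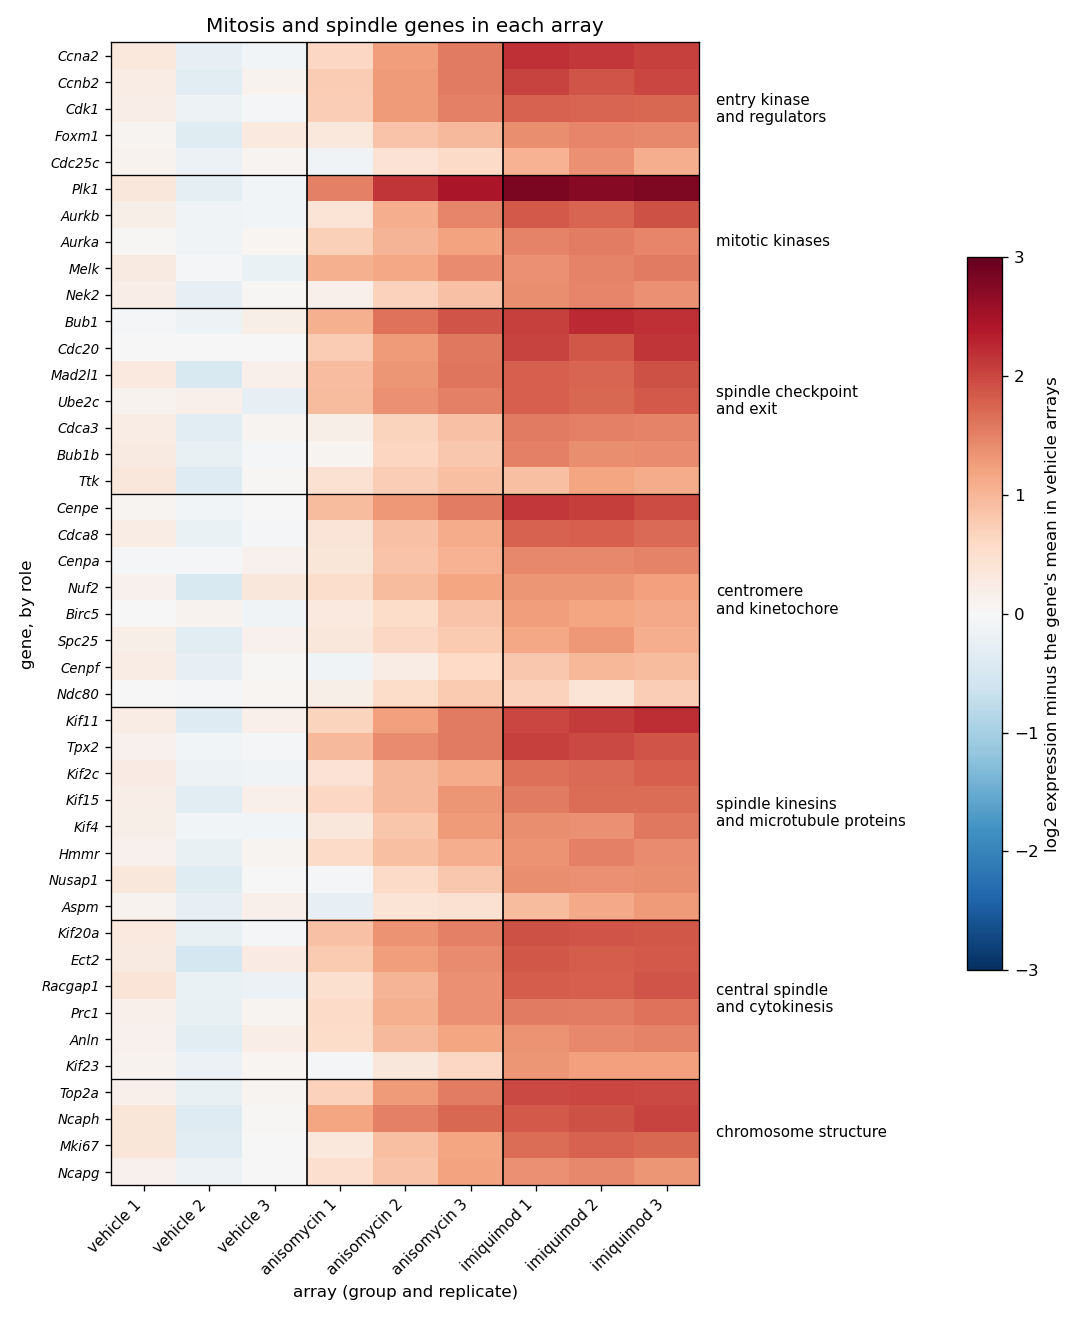
Log2 expression of each of the 43 mitosis and spindle genes (rows, grouped by role) in each of the 9 arrays (columns), with colour for the difference from the gene's mean over the 3 vehicle arrays. The 3 imiquimod columns are the darkest for most genes, Ndc80, Melk and Ttk being exceptions in which anisomycin replicate 3 exceeds an imiquimod array, and the first anisomycin column is paler than the other two.

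Of the genes for entry into mitosis, all 5 measured rose with imiquimod (median difference 1.75) and 4 rose with anisomycin (median over the 5, 1.15). Cdk1, the kinase itself, read 7.63, 7.29 and 7.41 in vehicle, 8.19, 8.73 and 8.95 with anisomycin and 9.22, 9.20 and 9.17 with imiquimod. Ccna2, cyclin A2, which partners CDKs in S phase and G2, read 7.70, 7.14 and 7.29 in vehicle, 8.01, 8.63 and 8.95 with anisomycin and 9.57, 9.50 and 9.44 with imiquimod. Ccnb2, a B-type cyclin that partners Cdk1, read 7.83, 7.28 and 7.72 in vehicle, 8.37, 8.88 and 9.16 with anisomycin and 9.64, 9.51 and 9.61 with imiquimod. In each of these genes every treated array lay above every vehicle array, and every imiquimod array above every anisomycin array. Cdk1 rose by 1.18 (SE 0.17, adjusted p = 0.000318) with anisomycin and by 1.75 (SE 0.17, adjusted p = 3.6e-05) with imiquimod. Ccna2 rose by 1.15 (SE 0.22, adjusted p = 0.00183) and by 2.12 (SE 0.22, adjusted p = 5.29e-05). The gap between treatments was widest here for Ccna2, at -0.97 (SE 0.22, adjusted p = 0.0135) for anisomycin minus imiquimod, the lowest value of the 43 genes, while for Cdk1 it was -0.57 (SE 0.17, adjusted p = 0.0416).

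Foxm1, a transcription factor of late cell cycle genes, read 6.68, 6.22 and 6.87 in vehicle, 6.90, 7.45 and 7.56 with anisomycin and 7.996, 8.06 and 8.02 with imiquimod. Cdc25c, a phosphatase that activates Cdk1, read 5.44, 5.17 and 5.43 in vehicle, 5.25, 5.78 and 5.93 with anisomycin and 6.39, 6.71 and 6.44 with imiquimod. Cdc25c was among the 5 genes not called with anisomycin, where its groups overlapped and the difference was 0.31 (SE 0.17, adjusted p = 0.174), and it rose by 1.17 (SE 0.17, adjusted p = 0.000393) with imiquimod. Without anisomycin replicate 1, Cdc25c was called higher with anisomycin too, at 0.509 (adjusted p = 0.00858). Foxm1 rose with both, by 0.71 and 1.44 (adjusted p = 0.0124 and 0.00025), and its call with anisomycin was lost without anisomycin replicate 2 (adjusted p = 0.0507).

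All 5 mitotic kinases rose with both treatments. Plk1, the Polo-like kinase needed for centrosome maturation, spindle assembly and cytokinesis, read 7.22, 6.62 and 6.81 in vehicle, 8.40, 9.03 and 9.33 with anisomycin and 9.71, 9.62 and 9.68 with imiquimod. This was the largest rise of the 43 genes, 2.04 (SE 0.22, adjusted p = 5.5e-05) with anisomycin, or 4.10-fold, and 2.79 (SE 0.22, adjusted p = 1.22e-05) with imiquimod, or 6.90-fold. Aurka, a kinase of spindle poles, read 6.60, 6.47 and 6.62 in vehicle, 7.28, 7.59 and 7.76 with anisomycin and 8.04, 8.10 and 8.02 with imiquimod, with rises of 0.98 and 1.49. Aurkb, the catalytic subunit of the chromosomal passenger complex, read 7.60, 7.30 and 7.34 in vehicle, 7.82, 8.51 and 8.87 with anisomycin and 9.26, 9.16 and 9.33 with imiquimod. Its rises were 0.99 (adjusted p = 0.00462) and 1.83 (adjusted p = 0.000132), and its anisomycin arrays spread the most of any member (SD 0.54).

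Nek2, a kinase that helps to separate the centrosomes, read 5.89, 5.44 and 5.71 in vehicle, 5.84, 6.38 and 6.55 with anisomycin and 7.07, 7.15 and 7.05 with imiquimod. Melk, a kinase whose transcript is common in dividing cells, read 6.05, 5.71 and 5.58 in vehicle, 6.85, 6.94 and 7.20 with anisomycin and 7.15, 7.27 and 7.34 with imiquimod. In Melk the anisomycin and imiquimod arrays overlapped, and in Nek2 they did not. Nek2 rose by 0.58 (SE 0.17, adjusted p = 0.0201) with anisomycin, its groups overlapping, and by 1.41 (SE 0.17, adjusted p = 0.00014) with imiquimod, so that anisomycin minus imiquimod was -0.83 (SE 0.17, adjusted p = 0.00909). Melk rose by 1.22 (SE 0.13, adjusted p = 4.48e-05) and 1.47 (SE 0.13, adjusted p = 2.02e-05), and its difference between treatments was not called at -0.25 (SE 0.13, adjusted p = 0.213). The call of Nek2 with anisomycin was lost without anisomycin replicate 2, anisomycin replicate 3 or vehicle replicate 2 (highest adjusted p = 0.0737), and also when the imiquimod arrays were kept out of the fit.

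The genes grouped under the spindle checkpoint and exit from mitosis rose with both treatments in 7 of 7 cases, with medians of 1.20 for anisomycin and 1.78 for imiquimod. Cdca3, which is linked to mitotic entry, was also placed in this group. Bub1, a checkpoint kinase at kinetochores, read 5.35, 5.24 and 5.57 in vehicle, 6.46, 7.004 and 7.28 with anisomycin and 7.44, 7.62 and 7.58 with imiquimod. Its difference was the largest of the role, 1.53 (SE 0.18, adjusted p = 9.14e-05) or 2.88-fold with anisomycin and 2.16 (SE 0.18, adjusted p = 1.62e-05) or 4.46-fold with imiquimod. Bub1b, which encodes the checkpoint protein BubR1 that holds Cdc20 inactive, read 6.86, 6.35 and 6.52 in vehicle, 6.67, 7.22 and 7.39 with anisomycin and 8.09, 7.98 and 8.002 with imiquimod. Bub1b had the smallest rise with anisomycin of the role, 0.52 (SE 0.18, adjusted p = 0.0413), with overlapping groups, although it rose by 1.45 (SE 0.18, adjusted p = 0.000167) with imiquimod. That anisomycin call was lost without any one of 7 of the 9 arrays (adjusted p up to 0.137), the exceptions being anisomycin replicate 1 and vehicle replicate 1, and it was also lost in the fit of those groups alone (adjusted p = 0.094) and with arrays centred on stable genes (adjusted p = 0.0548).

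Ttk, another kinase of the checkpoint, read 6.23, 5.50 and 5.93 in vehicle, 6.33, 6.62 and 6.80 with anisomycin and 6.78, 7.08 and 7.0 with imiquimod, and Mad2l1, whose product binds Cdc20, read 7.44, 6.68 and 7.29 in vehicle, 8.06, 8.47 and 8.74 with anisomycin and 8.93, 8.87 and 9.06 with imiquimod. Neither was called between the treatments, with anisomycin minus imiquimod at -0.37 (SE 0.18, adjusted p = 0.203) for Ttk and -0.53 (SE 0.21, adjusted p = 0.112) for Mad2l1. Ttk had the smallest rise of the role with imiquimod, 1.06 (SE 0.18, adjusted p = 0.00111).

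Cdc20, the activator of the anaphase-promoting complex that the checkpoint restrains, read 6.46, 6.45 and 6.44 in vehicle, 7.22, 7.72 and 8.02 with anisomycin and 8.48, 8.30 and 8.59 with imiquimod. Its vehicle arrays differed by very little (SD 0.012), and it rose by 1.20 (SE 0.17, adjusted p = 0.0003) and 2.01 (SE 0.17, adjusted p = 1.79e-05). Ube2c, the ubiquitin-conjugating enzyme of the same complex, read 6.84, 6.87 and 6.47 in vehicle, 7.67, 8.09 and 8.24 with anisomycin and 8.51, 8.45 and 8.56 with imiquimod. Cdca3, a cell division cycle associated gene linked to mitotic entry, read 7.12, 6.58 and 6.97 in vehicle, 7.08, 7.56 and 7.77 with anisomycin and 8.45, 8.41 and 8.39 with imiquimod. Anisomycin minus imiquimod was -0.51 (SE 0.15, adjusted p = 0.0407) for Ube2c, a call near the threshold, and -0.95 (SE 0.18, adjusted p = 0.00601) for Cdca3. For Cdca3 anisomycin replicate 1 lay between the vehicle arrays, and its rise with anisomycin, 0.58 (SE 0.18, adjusted p = 0.0241), was lost without anisomycin replicate 2, anisomycin replicate 3 or vehicle replicate 2 (adjusted p up to 0.0824), and also in the fit of those groups alone.

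Among 8 centromere and kinetochore genes, 8 rose with imiquimod and 7 with anisomycin, and the medians, 1.24 and 0.67, were the lowest of the 7 roles. Cenpa, the histone variant that marks centromeres, read 7.10, 7.11 and 7.28 in vehicle, 7.52, 8.02 and 8.20 with anisomycin and 8.61, 8.61 and 8.65 with imiquimod. Cenpe, a motor that carries chromosomes along spindle microtubules, read 5.24, 5.07 and 5.17 in vehicle, 6.10, 6.46 and 6.69 with anisomycin and 7.28, 7.23 and 7.12 with imiquimod. Cenpf, a large kinetochore-associated protein, read 6.36, 5.89 and 6.17 in vehicle, 6.02, 6.37 and 6.74 with anisomycin and 6.94, 7.13 and 7.08 with imiquimod. Cenpe had the largest rises of the role, 1.26 (SE 0.13, adjusted p = 3.77e-05) and 2.05 (SE 0.13, adjusted p = 3.28e-06). Cenpf was not called with anisomycin, at 0.24 (SE 0.17, adjusted p = 0.303), and rose by 0.91 (SE 0.17, adjusted p = 0.00209) with imiquimod. Cenpa rose by 0.75 and 1.46, and its difference between treatments was -0.71 (SE 0.15, adjusted p = 0.00903).

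Ndc80, Nuf2 and Spc25 encode subunits of one complex, which binds microtubules at the kinetochore. Ndc80 read 5.32, 5.29 and 5.41 in vehicle, 5.52, 5.88 and 6.12 with anisomycin and 6.02, 5.74 and 6.07 with imiquimod. Nuf2 read 5.60, 5.02 and 5.82 in vehicle, 6.00, 6.44 and 6.67 with anisomycin and 6.79, 6.81 and 6.70 with imiquimod. Spc25 read 5.66, 5.16 and 5.61 in vehicle, 5.82, 6.11 and 6.27 with anisomycin and 6.64, 6.77 and 6.56 with imiquimod. The anisomycin and imiquimod arrays of Ndc80 overlapped, and this gene had the smallest rise with imiquimod of all 43, 0.61 (SE 0.14, adjusted p = 0.00711) or 1.52-fold. With anisomycin Ndc80 rose by 0.50 (SE 0.14, adjusted p = 0.017), a call lost without anisomycin replicate 2, anisomycin replicate 3 or vehicle replicate 2 (adjusted p up to 0.0558). The difference between treatments was -0.10 (SE 0.14, adjusted p = 0.691) for Ndc80 and -0.40 (SE 0.21, adjusted p = 0.239) for Nuf2, neither called, and -0.59 (SE 0.15, adjusted p = 0.0224) for Spc25.

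Birc5 and Cdca8 encode survivin and borealin, which like Aurora B are subunits of the chromosomal passenger complex. Birc5 read 6.22, 6.34 and 6.11 in vehicle, 6.52, 6.78 and 7.07 with anisomycin and 7.48, 7.41 and 7.35 with imiquimod, and Cdca8 read 6.45, 6.03 and 6.18 in vehicle, 6.61, 7.10 and 7.33 with anisomycin and 7.99, 8.01 and 7.92 with imiquimod. Both were in 3 separate tiers, vehicle lowest and imiquimod highest, with no overlap. Anisomycin minus imiquimod was -0.63 (SE 0.12, adjusted p = 0.0076) for Birc5 and -0.96 (SE 0.17, adjusted p = 0.00466) for Cdca8.

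All 8 spindle kinesins and microtubule proteins rose with imiquimod (median 1.55) and 6 with anisomycin (median over the 8, 0.85), and all 8 were lower with anisomycin than with imiquimod. Kif11, the motor that pushes spindle poles apart, read 6.53, 5.92 and 6.47 in vehicle, 6.97, 7.55 and 7.86 with anisomycin and 8.31, 8.40 and 8.51 with imiquimod. Kif15, a motor that shares this task, read 5.72, 5.19 and 5.67 in vehicle, 6.15, 6.50 and 6.85 with anisomycin and 7.09, 7.21 and 7.20 with imiquimod. Kif2c, which depolymerises microtubules at centromeres, read 5.89, 5.50 and 5.54 in vehicle, 6.07, 6.63 and 6.77 with anisomycin and 7.31, 7.35 and 7.43 with imiquimod. In all of them the 3 groups were apart. Kif11 had the largest rise of the role with imiquimod, 2.10 (SE 0.22, adjusted p = 6.23e-05), and rose by 1.15 (SE 0.22, adjusted p = 0.00203) with anisomycin.

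Kif4, a motor on chromosome arms, read 5.36, 5.11 and 5.10 in vehicle, 5.54, 6.01 and 6.46 with anisomycin and 6.59, 6.55 and 6.77 with imiquimod. Tpx2, which activates Aurora A on spindle microtubules, read 5.83, 5.61 and 5.67 in vehicle, 6.67, 7.12 and 7.27 with anisomycin and 7.75, 7.69 and 7.58 with imiquimod. Hmmr, a microtubule-associated protein of the spindle, read 5.07, 4.72 and 5.03 in vehicle, 5.52, 5.84 and 6.03 with anisomycin and 6.29, 6.45 and 6.35 with imiquimod. Tpx2 had the largest rise of the role with anisomycin, 1.32 (SE 0.14, adjusted p = 4.27e-05). The difference of Kif4 between the treatments, -0.63 (SE 0.19, adjusted p = 0.0478), was the one nearest the threshold of the 35 called, and it was lost without any one of 8 of the 9 arrays, anisomycin replicate 3 being the exception (adjusted p up to 0.147).

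Nusap1, which bundles spindle microtubules, read 6.72, 6.00 and 6.39 in vehicle, 6.32, 6.94 and 7.18 with anisomycin and 7.75, 7.74 and 7.76 with imiquimod. Aspm, a protein of spindle poles, read 6.25, 5.91 and 6.29 in vehicle, 5.91, 6.56 and 6.60 with anisomycin and 7.10, 7.29 and 7.42 with imiquimod. In both, anisomycin replicate 1 was within the range of the vehicle arrays while the imiquimod arrays were clear of all others. With anisomycin neither was called, at 0.45 (SE 0.22, adjusted p = 0.136) for Nusap1 and 0.21 (SE 0.18, adjusted p = 0.404) for Aspm, the latter the smallest difference of the 43 genes. Without anisomycin replicate 1 both were called higher, at 0.696 (adjusted p = 0.0129) and 0.432 (adjusted p = 0.0255). With imiquimod they rose by 1.39 (SE 0.22, adjusted p = 0.000786) and 1.12 (SE 0.18, adjusted p = 0.000871).

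Of 6 genes for the central spindle and cytokinesis, 6 rose with imiquimod (median 1.70) and 5 with anisomycin (median over the 6, 0.98). Kif20a, a motor of the central spindle, read 6.65, 6.12 and 6.28 in vehicle, 7.22, 7.70 and 7.86 with anisomycin and 8.27, 8.23 and 8.21 with imiquimod. Kif23, which with Racgap1 forms the centralspindlin complex, read 6.84, 6.58 and 6.81 in vehicle, 6.69, 7.07 and 7.37 with anisomycin and 8.06, 7.98 and 7.98 with imiquimod. Racgap1 read 7.48, 6.92 and 6.92 in vehicle, 7.59, 8.12 and 8.49 with anisomycin and 8.92, 8.91 and 8.99 with imiquimod. The partners were not called alike. Kif23 was not called with anisomycin, at 0.30 (SE 0.15, adjusted p = 0.128), and its gap between treatments, -0.96 (SE 0.15, adjusted p = 0.00261), was the widest of the role. Without anisomycin replicate 1, Kif23 was called higher with anisomycin, at 0.479 (adjusted p = 0.00641). Racgap1 rose by 0.96 (SE 0.22, adjusted p = 0.00514) with anisomycin, and by 1.83 (SE 0.22, adjusted p = 0.000123) with imiquimod. Whether the anisomycin differences of Kif23 and Racgap1 differ from each other was not tested. Kif20a had the largest rises of the role, 1.24 (SE 0.17, adjusted p = 0.000235) and 1.89 (SE 0.17, adjusted p = 2.43e-05).

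Prc1, which cross-links the microtubules of the central spindle, read 6.43, 6.05 and 6.37 in vehicle, 6.87, 7.34 and 7.64 with anisomycin and 7.85, 7.81 and 7.90 with imiquimod. Anln, anillin, a scaffold of the contractile ring, read 7.72, 7.27 and 7.78 in vehicle, 8.14, 8.57 and 8.78 with anisomycin and 8.95, 9.04 and 9.08 with imiquimod. Ect2, which activates the GTPase RhoA at the division plane, read 7.04, 6.24 and 7.004 in vehicle, 7.54, 8.02 and 8.18 with anisomycin and 8.63, 8.56 and 8.60 with imiquimod. These groups too were apart in all 3 comparisons, yet the differences of Anln and Ect2 between treatments, -0.52 (SE 0.17, adjusted p = 0.0606) and -0.68 (SE 0.22, adjusted p = 0.057), missed the threshold. Both were called in several other settings, among them array weights (adjusted p = 0.00166 and 0.00143) and the fit without vehicle replicate 2 (adjusted p = 0.0304 and 0.0115). The difference of Prc1 between treatments was called at -0.57 (SE 0.17, adjusted p = 0.0474). It was lost without any one of 7 of the 9 arrays (adjusted p up to 0.129), anisomycin replicate 3 and vehicle replicate 2 being the exceptions.

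The 4 genes of chromosome structure all rose with both treatments, with medians of 1.01 and 1.82. Mki67, which encodes the proliferation marker Ki-67, read 8.59, 7.88 and 8.21 in vehicle, 8.55, 9.14 and 9.40 with anisomycin and 9.90, 9.99 and 9.94 with imiquimod. It rose by 0.80 (SE 0.22, adjusted p = 0.0137) with anisomycin and 1.72 (SE 0.22, adjusted p = 0.000194) with imiquimod, and anisomycin replicate 1 lay just below the highest vehicle array. The anisomycin call of Mki67 was lost without anisomycin replicate 2 or vehicle replicate 2 (adjusted p up to 0.0513). Top2a, the topoisomerase that untangles sister chromatids, read 7.04, 6.67 and 6.99 in vehicle, 7.58, 8.18 and 8.44 with anisomycin and 8.87, 8.89 and 8.87 with imiquimod, with rises of 1.17 (SE 0.19, adjusted p = 0.000687) and 1.98 (SE 0.19, adjusted p = 3.44e-05). A further row of Top2a, not used for the calls because it was dimmer, stayed near 3 in every group, with means of 3.05 in vehicle, 3.05 with anisomycin and 3.17 with imiquimod.

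Ncapg and Ncaph encode subunits of condensin I, the complex that compacts mitotic chromosomes. Ncapg read 6.05, 5.77 and 5.93 in vehicle, 6.42, 6.77 and 7.13 with anisomycin and 7.28, 7.36 and 7.24 with imiquimod, and Ncaph read 6.59, 5.82 and 6.25 in vehicle, 7.40, 7.73 and 7.95 with anisomycin and 8.06, 8.13 and 8.25 with imiquimod. Ncaph had the largest rise of the role with anisomycin, 1.47 (SE 0.19, adjusted p = 0.000171), and was not called between treatments at -0.46 (SE 0.19, adjusted p = 0.131). Ncapg had the smallest rise of the role with imiquimod, 1.38 (SE 0.15, adjusted p = 8.56e-05), and rose by 0.86 (SE 0.15, adjusted p = 0.00131) with anisomycin.

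**Figure D3:**
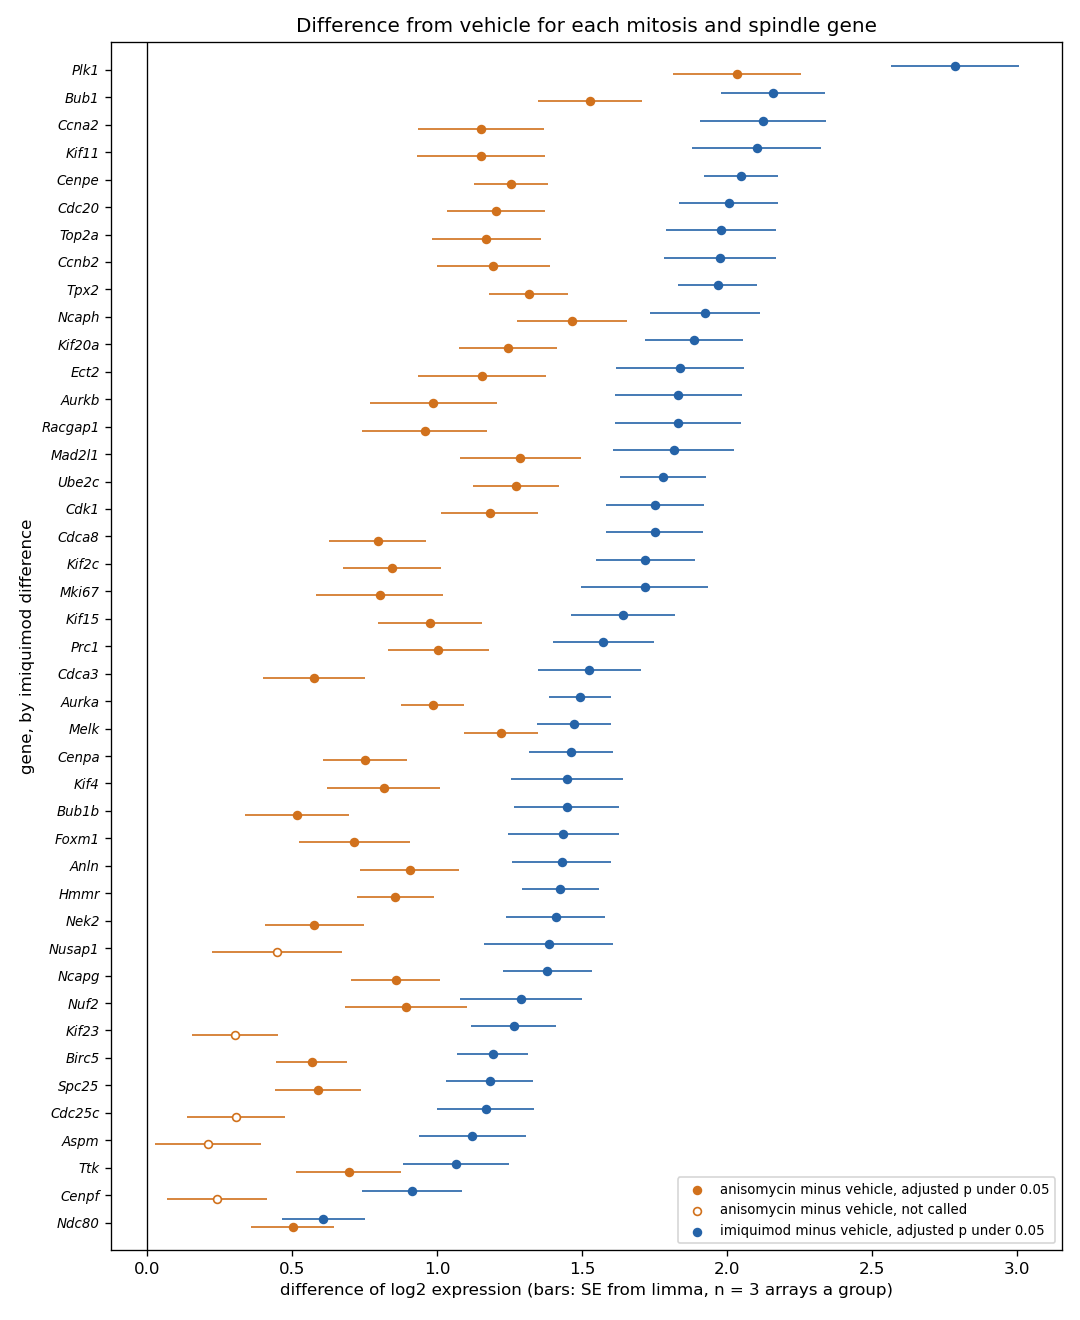
Difference in log2 expression from vehicle for each of the 43 genes, with anisomycin in orange and imiquimod in blue; bars are standard errors (3 arrays a group) and open points are differences that were not called. Imiquimod points run from 0.61 (Ndc80) to 2.79 (Plk1), anisomycin points from 0.21 (Aspm) to 2.04 (Plk1), and the open points are Cdc25c, Cenpf, Nusap1, Aspm and Kif23.

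Of the 3 comparisons, the count of called genes moved most in the direct one between the treatments when arrays were left out. The 8 genes not called in it were Melk, Ttk, Mad2l1, Nuf2, Ndc80, Anln, Ect2 and Ncaph, with differences down to -0.68 (Ect2). Leaving out single arrays changed the count from 35 to 22 without anisomycin replicate 1, to 20 without anisomycin replicate 2, and to 16, 15 and 17 without imiquimod replicate 1, 2 and 3. Of the 35 genes, 14 kept their call whichever array was left out, and these were Cdc25c, Aurka, Nek2, Bub1b, Cdc20, Cdca3, Cenpa, Cenpe, Birc5, Cdca8, Kif2c, Tpx2, Aspm and Kif23. Without single arrays the median difference of the 43 genes stayed between -0.86 and -0.49. In a fit of the 2 groups alone the count was 29, and with array weights it was 42. The call against vehicle with imiquimod held for all 43 genes whichever array was left out and under 10 other settings. With anisomycin it held for 32 of 38 whichever array was left out, the others being Foxm1, Nek2, Bub1b, Cdca3, Ndc80 and Mki67. Of the 5 genes not called with anisomycin, Cdc25c, Nusap1, Aspm and Kif23 were called higher without anisomycin replicate 1, so that their status rests on that array.

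**Figure D4:**
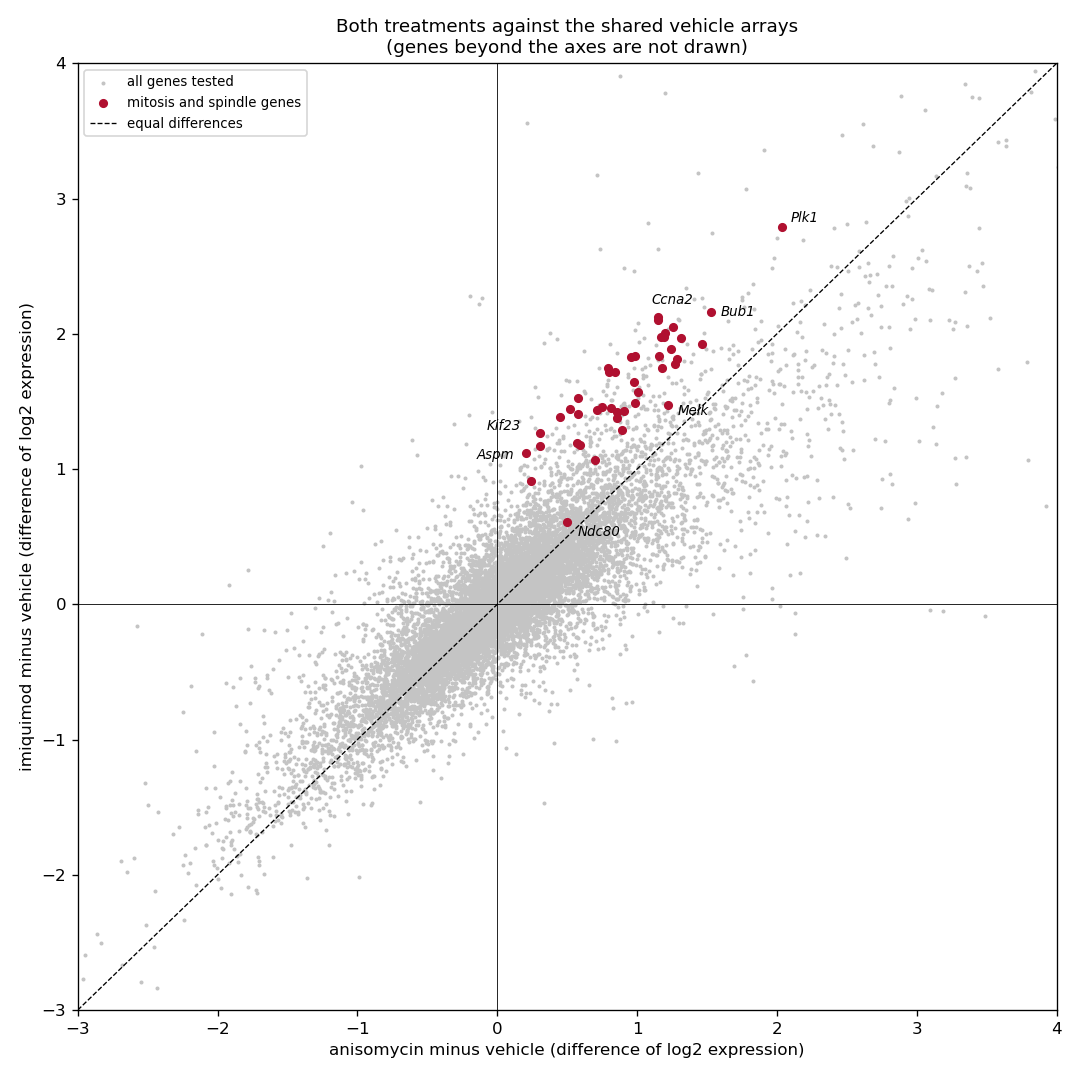
Difference from vehicle with imiquimod (y axis) against that with anisomycin (x axis), both in log2 expression, for all genes tested (grey) and the 43 mitosis and spindle genes (red); the dashed line marks equal differences. Both axes use the same 3 vehicle arrays, and all 43 red points lie above the dashed line, with anisomycin minus imiquimod from -0.97 (Ccna2) to -0.10 (Ndc80).

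The anisomycin arrays differed from each other in one way across the whole set. The median over the 43 genes of the difference from the vehicle mean was 0.53, 0.98 and 1.21 in anisomycin replicates 1, 2 and 3. Replicate 1 was the lowest anisomycin array for 43 of 43 genes and replicate 3 the highest for 43 of 43, where over all genes they were so for 40.6% and 36.9%. The genes of the set move together, so these are not separate observations of the difference between arrays. Replicate 1 lay above the highest vehicle array for 34 genes, replicates 2 and 3 for 43 each. The imiquimod arrays were close to each other, with a mean of such medians of 1.57 (SD 0.04). Vehicle replicate 2 was the lowest of its group for 37 of the 43 genes (38.1% of all genes).

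The standard deviation among the 3 arrays of a group had a median over the 43 genes of 0.36 with anisomycin, 0.22 in vehicle and 0.06 with imiquimod, where over all genes it was 0.08, 0.10 and 0.06. It was largest with anisomycin for 36 of 43 genes and in vehicle for the other 7. The fit gives each gene one spread for all groups. Levels of cell type markers differed among the same anisomycin arrays. For 6 spinous and granular keratinocyte markers the median difference from vehicle was -0.50, -0.15 and -0.02 in anisomycin replicates 1, 2 and 3, and for 8 neutrophil markers it was 2.49, 2.44 and 2.05. The spinous and granular markers also varied among vehicle replicates 1, 2 and 3, at 0.21, -0.24 and 0.02. Both lists were picked after their values were seen. Other lists varied among the anisomycin arrays too, such as endothelial markers at 0.27, 0.13 and -0.07, while B and plasma cell markers hardly did. The part of these marker levels in the differences among the arrays was not tested.

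Other genes of mitosis mostly rose as well. Of 70 symbols listed for such genes outside the set, some of them older and newer names of the same gene, 64 were measured. Of these 59 rose and 2 fell with imiquimod (median 1.00), while 42 rose and 3 fell with anisomycin (median 0.48). Over all genes, 20.4% rose and 22.35% fell with imiquimod, and 22.3% rose and 23.28% fell with anisomycin. Cks2, a small subunit that binds Cdk1, read 6.33, 5.41 and 6.08 in vehicle, 7.56, 7.66 and 7.76 with anisomycin and 7.83, 7.69 and 7.92 with imiquimod, and rose the most of them, by 1.72 with anisomycin and 1.88 with imiquimod. Kif18b, a kinesin of microtubule plus ends, rose by 1.81 with imiquimod, and Cenpn, a centromere protein, by 1.33 with anisomycin. Pttg1, the securin that holds separase inactive until anaphase, went the other way, with 8.10, 8.16 and 8.24 in vehicle, 7.42, 7.44 and 7.40 with anisomycin and 7.84, 7.79 and 7.92 with imiquimod. It fell by 0.75 with anisomycin (adjusted p = 6.1e-06) and by 0.32 with imiquimod (adjusted p = 0.00134). Wee1, a kinase that inhibits Cdk1, fell by 0.33 with imiquimod (adjusted p = 0.0496) and by 0.34 with anisomycin (adjusted p = 0.0398). Cdc25b, a phosphatase that activates Cdk1, fell by 0.41 with anisomycin (adjusted p = 0.0225) and rose by 0.44 with imiquimod (adjusted p = 0.018), and its difference between treatments was called at -0.85 (adjusted p = 0.0021). Between the treatments 42 of the 64 were lower with anisomycin and 0 higher (median -0.48), where 9.59% of all genes were lower. The largest differences were those of Ncapd2 at -0.88 and Psrc1 at -0.88.

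Genes of DNA replication and the step from G1 to S phase also rose. With imiquimod 37 of 41 measured genes rose and with anisomycin 26 (all genes, 20.4% and 22.3%), and none of the 41 was called lower in either comparison, with medians of 0.91 and 0.51. Rrm2, a subunit of the reductase that makes deoxyribonucleotides, read 7.63, 7.02 and 7.27 in vehicle, 8.68, 9.25 and 9.28 with anisomycin and 9.48, 9.52 and 9.52 with imiquimod, and rose the most with both, by 1.76 with anisomycin and 2.20 with imiquimod. Dbf4, which activates the kinase Cdc7 at replication origins, read 5.63, 5.84 and 5.64 in vehicle, 6.60, 6.70 and 6.93 with anisomycin and 7.50, 7.43 and 7.27 with imiquimod and rose by 1.70 with imiquimod, and Mcm5, a subunit of the replicative helicase, by 1.25 with anisomycin. Between the treatments 15 of the 41 were lower with anisomycin and 0 higher, with a median of -0.31, where 9.59% of all genes were lower. The largest differences were those of Dbf4 at -0.66 and Tyms, thymidylate synthase, at -0.65.

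The lists that follow held called genes in both directions, to be read beside the 45.6% and 42.7% of all genes called with anisomycin and imiquimod, with 22.3% and 20.4% of all genes higher. For anisomycin against imiquimod, 10.8% of all genes were higher and 9.59% lower. Counts near those shares are not a result about a list. Of 5 G1 cyclins and their kinases, 2 rose and 1 fell with anisomycin, and 3 rose and 1 fell with imiquimod. Cdk6, a G1 kinase, read 9.06, 8.85 and 9.05 in vehicle, 10.21, 10.28 and 10.26 with anisomycin and 9.84, 9.82 and 9.77 with imiquimod and was higher with anisomycin than with imiquimod by 0.44 (adjusted p = 0.00216). Cdk4 rose by 0.26 and 0.47 with anisomycin and imiquimod. Ccnd2, cyclin D2, fell by 0.96 and 0.92.

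Of 19 measured CDK inhibitors, pocket proteins and growth arrest genes, 6 rose and 8 fell with anisomycin, and 4 rose and 8 fell with imiquimod, with medians of -0.09 and -0.24. Gadd45b, a stress-induced gene of growth arrest, rose by 2.22 with anisomycin and was higher there than with imiquimod by 1.60 (adjusted p = 0.000167), with 8.40, 8.12 and 8.30 in vehicle, 10.79, 10.45 and 10.24 with anisomycin and 8.86, 8.77 and 9.06 with imiquimod. Btg2, an antiproliferative gene, rose by 0.86 and 0.78 with anisomycin and imiquimod. Trp53inp1, a p53-induced gene, fell by 1.33 and 1.51. Mxd4, a MYC antagonist, fell by 1.26 with anisomycin, and Cdkn1c, the CDK inhibitor p57, by 1.08 with imiquimod. Rbl1, the pocket protein p107, rose by 1.02 with imiquimod and was lower with anisomycin than with imiquimod, at -0.52 (adjusted p = 0.0126). Between the treatments 5 of the 19 were higher and 3 lower with anisomycin, Btg1 among the higher at 0.69 and Cdkn2c among the lower at -0.49.

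Of 9 further subunits of the DREAM and MuvB complexes, the regulators named above for the CHR, 4 rose and 1 fell with each treatment. E2f4, a repressor E2F, rose by 0.68 and 0.87 with anisomycin and imiquimod and Tfdp1, its dimer partner, by 0.52 and 0.82. Tfdp2, the alternative partner, fell by 1.40 and 0.83. Between the treatments 3 were lower with anisomycin and 0 higher, Tfdp2 at -0.56 and Tfdp1 at -0.30. The 13 measured subunits and activators of the anaphase-promoting complex, the target of Cdc20, had 3 higher and 5 lower for anisomycin and 2 higher and 2 lower for imiquimod. Cdc27 rose by 0.67 and 0.41, while Anapc5 fell by 0.79 with anisomycin. Anapc10 rose by 0.39 and Anapc13 fell by 0.32 with anisomycin. Fzr1, the Cdh1 activator of late mitosis and G1, rose by 0.58 with imiquimod, while Cdc23 fell by 0.26 and Anapc11 by 0.19. Between the treatments Cdc27 was higher with anisomycin by 0.25, and Anapc5 and Fzr1 were lower, at -0.65 and -0.20.

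**Figure D5:**
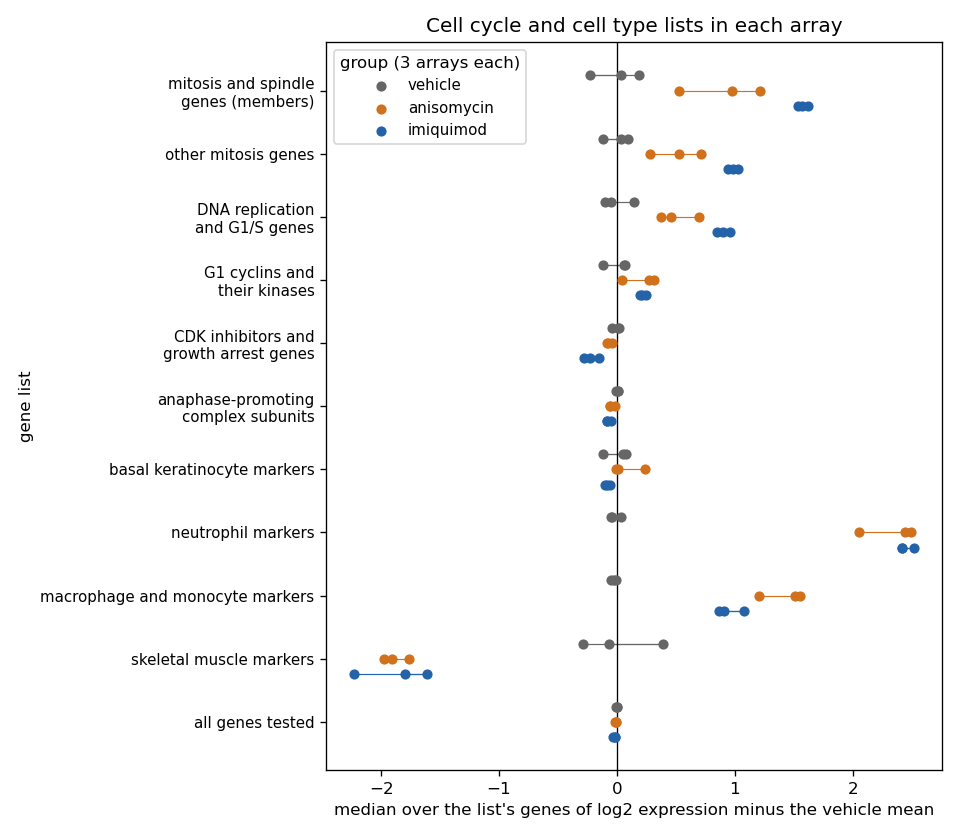
Median over each gene list of log2 expression minus the vehicle mean (x axis), with 1 point per array and 3 arrays a group, for the mitosis and spindle genes, further cell cycle lists, cell type markers and all genes tested. The mitosis and spindle genes show 3 tiers with anisomycin arrays at 0.53, 0.98 and 1.21, while the medians over all genes tested lie close to 0.

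Markers of several cell types differed between the groups as well. Krt14, a keratin of basal cells, had means of 12.16 in vehicle, 12.96 with anisomycin and 12.83 with imiquimod. Of 10 basal keratinocyte markers, 4 rose and 3 fell with anisomycin and 4 rose and 4 fell with imiquimod. Krt14 was among those that rose, while the largest falls were of Krt15, another basal keratin, with differences of -2.46 and -2.54 with anisomycin and imiquimod, and of Dst, a protein of hemidesmosomes, with -0.68 and -1.16. The summed signal of the 10 markers, given as log2, ran from 14.16 to 14.36 in vehicle, 14.41 to 14.44 with anisomycin and 14.35 to 14.36 with imiquimod. Such a sum, here and for the lists below, is set mostly by the brightest genes. The mean log2 level of the same 10 markers was not higher with either treatment. It ran from 10.23 to 10.38 in vehicle, 10.20 to 10.27 with anisomycin and 9.87 to 9.97 with imiquimod. Hair follicle markers, a further site of division, did not rise in any case of 10, and 6 fell with anisomycin and 3 with imiquimod. For those the summed signal was 9.55 to 9.79 in vehicle, 9.17 to 9.26 with anisomycin and 9.19 to 9.53 with imiquimod. Beside the counts of both lists, 22.3% of all genes rose and 23.28% fell with anisomycin. With imiquimod 20.4% of all genes rose and 22.35% fell, so that the 3 falls of hair follicle markers there are near the share of all genes.

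Markers of neutrophils and macrophages mostly rose with both treatments, and no lymphocyte marker was called higher. Over all genes, 22.3% rose and 23.28% fell with anisomycin, and 20.4% rose and 22.35% fell with imiquimod. Counts near those shares, such as those of immature granulocytes, are not a result about a list. Of 8 neutrophil markers measured, 7 rose with each, and the log2 summed signal went from 8.67 to 8.85 in vehicle to between 11.50 and 12.02 with anisomycin and between 11.37 and 11.55 with imiquimod. Of 9 macrophage and monocyte markers, 8 rose with anisomycin and 7 with imiquimod, with sums of 10.82 to 10.87, 12.00 to 12.20 and 11.70 to 11.78. Genes of immature granulocytes, which divide in bone marrow, were called higher in 2 of 10 cases with each treatment, with 2 and 1 lower, and had sums of 8.45 to 8.49, 8.54 to 8.65 and 8.58 to 8.68. Of 8 T cell markers 0 rose and 3 fell with each treatment (sums of 10.29 to 10.51, 10.10 to 10.35 and 10.20 to 10.27). B and plasma cell markers were not called in any comparison (5 measured), with summed signals of 7.19 to 7.45, 7.30 to 7.35 and 7.34 to 7.41.

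All 8 skeletal muscle markers and all 6 adipocyte markers fell with both treatments, with summed signal for muscle of 13.29 to 13.98 in vehicle, 11.49 to 11.72 with anisomycin and 11.30 to 11.94 with imiquimod, and for fat of 11.03 to 11.79, 9.44 to 9.81 and 10.03 to 10.20. Of 8 fibroblast markers 6 fell with each, while Dpp4 and Pdgfra rose by 0.71 and 0.68 with anisomycin and Dpp4 by 0.93 with imiquimod (summed signal 14.04 to 14.27, 13.26 to 13.32 and 13.16 to 13.29). Between the treatments 6 of 9 macrophage markers and 4 of 8 endothelial markers were higher with anisomycin (all genes, 10.8%). In the other direction 1 macrophage marker, Adgre1, was lower at -0.93 (all genes, 9.59%). Of 6 spinous and granular markers 3 were lower. Of 9 Langerhans and dendritic cell markers 4 fell and 1 rose with anisomycin and 5 fell with imiquimod (sums of 12.67 to 12.95 in vehicle, 11.90 to 12.18 and 11.88 to 12.14). The sums for endothelium were 10.24 to 10.65 in vehicle, 10.21 to 10.69 with anisomycin and 9.89 to 9.93 with imiquimod. Against vehicle, 1 of the 8 endothelial markers rose and 3 fell with anisomycin, and 0 rose and 4 fell with imiquimod. The shares of all genes against vehicle were 22.3% higher and 23.28% lower with anisomycin, and 20.4% higher and 22.35% lower with imiquimod. The sums for the spinous and granular layers were 13.92 to 14.28 in vehicle, 13.37 to 14.05 with anisomycin and 14.34 to 14.37 with imiquimod. Values of this array have no true zero, and the table used here gives no detection calls, so no marker can be listed as absent. The part of these differences in the rise of the mitosis genes was not tested.

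Members with both promoter motifs and the remaining members had overlapping ranges of difference. The median difference of the 25 genes with a CHR and a CCAAT match was 0.86 with anisomycin, 1.57 with imiquimod and -0.71 between them, and that of the 12 measured genes with 1 motif or neither was 0.90, 1.45 and -0.58. Among those without either, Ncaph rose by 1.47 and 1.92 and Mad2l1 by 1.29 and 1.82. With imiquimod the differences ran from 0.91 to 2.79 for genes with both motifs and from 0.61 to 2.05 for the others.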

How the data were processed

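Total RNA from mouse ear skin was hybridised to 9 Affymetrix Mouse Gene 1.0 ST arrays, 3 a group, per the labels. The authors deposited log2 expression values made with RMA, per the submitters' processing notes; RMA is a method of background correction, quantile normalization and summary of probes by probe set. Its version, and whether the 9 arrays were normalized together, are not given in the sources used here. A log2 scale was inferred from the range of the values, 2.385 to 13.966, with no scanner files used here to check it. The build behind the platform annotation is not stated there.

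Of 35556 rows, 21789 carried 1 gene symbol in the platform annotation, 1621 several and 12146 none. Rows with 1 symbol were kept, with the row of highest mean per gene, which left 19938 genes. No filter on dim genes was applied. The fit was made in limma 3.58.1 (R 4.3.3), with 1 coefficient for each group, no covariates and all 9 arrays, giving 6 residual and 3.16 prior degrees of freedom. The 3 contrasts were two-sided, and a gene was called where its p, adjusted by Benjamini-Hochberg over all genes, was under 0.05. An exact rank test of 3 against 3 arrays has a smallest p of 0.1, and the calls depend on limma's sharing of variance across genes; precision is limited by the number of arrays. The closest pair of arrays differed by 0.182 (root mean square), so none was a copy of another. The script was tested on simulated data before use.

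The members and the gene lists were chosen with earlier results of these data known, and no list was tested as a set. Lists are given as counts and medians. For each role, genes with the largest and smallest difference from vehicle and all members called between the treatments have every array's value printed. For each other cell cycle list, up to 2 genes per direction with the largest called differences are named for each contrast. Genes outside this rule (the differences of Wee1 and Cdc25b in their second contrast, the cell type markers, the other members) were named after their values were seen. Promoter windows came from RefSeq (GRCm38.p6) and were matched by symbol. Alternatives were a trended robust prior, leaving out the dimmest 30% of genes, other scalings and probe set rules, weights for arrays, a replicate block, fits of 2 groups, and leaving out each array in turn.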

Additional observations from a re-analysis of the deposited data

How the results depend on the processing

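The comparison of imiquimod with vehicle kept its direction and call for all 43 mitosis genes in each of 9 fits that left out 1 array and in 10 other settings. For anisomycin against vehicle, with 38 genes called, the count ran from 32 to 42 without single arrays and from 35 (only the 2 groups compared) to 41 (array weights) under other settings, and the median difference from 0.745 to 1.083 without single arrays. For anisomycin against imiquimod, with 35 called, it ran from 15 to 37 without single arrays, and the median from -0.855 to -0.494. Ndc80 alone among the 43 changed sign there, to 0.057 (adjusted p = 0.826) without anisomycin replicate 1, and its values without single arrays went down to -0.246, called in none of the fits. Genes called over the whole table in that comparison went from 4059 to 8557 with array weights, and the cause was not tested. Without single arrays they ran from 2523 to 4766, with fewer arrays in those fits.

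The labels number the replicates of each group from 1 to 3. Arrays of the same number deviated from their group means with correlations of -0.201 to 0.196, and arrays of different numbers with -0.238 to 0.254. From 3 arrays a group these values cannot decide whether the numbers pair the arrays, and the labels do not say. With the replicate block, 37 of the 43 genes were called for anisomycin against vehicle, 43 for imiquimod against vehicle and 28 for anisomycin against imiquimod. The gene lost in the first was Bub1b (adjusted p = 0.0701). Whole-table counts were 8924, 8280 and 3734.

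Limits are the 3 arrays a group, the wide spread of the anisomycin arrays, a vehicle group of unstated kind, and the mixed tissue. Signal over background was not given in the table used here, so that dim genes cannot be set against a detection limit.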

Other observations

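The 10 genes whose levels over the 9 arrays were most like the mean of the 43 mitosis genes were picked from 3606 non-member genes with a range of at least 1 on the log2 scale. By Pearson's r, from 0.999 to 0.994 over 9 arrays that fall into 3 groups, they were Pclaf, Cip2a, Sgo1, Pold2, Knstrn, Sephs2, H1f1, Krt1, Hells and Pbk, and r is given here as a description with no p. Pclaf, which binds the replication clamp PCNA, came nearest and read 7.62, 7.16 and 7.46 in vehicle, 7.85, 8.32 and 8.52 with anisomycin and 8.92, 8.94 and 8.91 with imiquimod. Cip2a, an inhibitor of the phosphatase PP2A, read 6.19, 5.74 and 6.06 in vehicle, 6.47, 6.82 and 7.04 with anisomycin and 7.44, 7.39 and 7.39 with imiquimod. Sgo1, which protects the cohesion of sister centromeres, and Knstrn, a spindle and kinetochore protein, act in mitosis, while Pold2, a subunit of DNA polymerase delta, H1f1, a linker histone, and Hells, a chromatin remodeller, act on DNA and chromatin. Pbk is a mitotic kinase, and Sephs2 makes selenophosphate.

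Krt1, another of those 10 genes, encodes a keratin of the spinous layer, whose cells have left the cycle. It read 10.46, 9.74 and 10.32 in vehicle, 11.10, 11.42 and 12.04 with anisomycin and 12.54, 12.54 and 12.47 with imiquimod. It rose by 1.35 with anisomycin and 2.34 with imiquimod, and anisomycin minus imiquimod was -0.99. Of the 6 spinous and granular markers, 2 rose and 3 fell with anisomycin, and 2 rose and 1 fell with imiquimod. Over all genes, 22.3% and 20.4% rose, and 23.28% and 22.35% fell. Flg2 of that list had differences of -3.39 and -2.80 with anisomycin and imiquimod, and Lor of -1.275 with anisomycin. Among the 100 genes of highest r, 19 belonged to the list of other mitosis genes and 10 to that of DNA replication and G1/S genes, and Krt1 was the one member of the spinous and granular list. The share of each list among the 3606 genes compared was not worked out, so these counts are a description only.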
